A study of Mus musculus with 9 samples.

Results

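The genes described are the 10 listed constant region genes of the mouse immunoglobulin loci, chosen by name, and all 10 have a row among the 24296 genes of the count table. Ighg1, Ighg2b, Ighg2c, Ighg3, Igha, Ighm and Ighd encode heavy chain constant regions, Igkc the kappa light chain and Iglc1 and Iglc2 lambda light chains. They were picked after their levels in sick and healthy joints were known, so their differences between the groups are given as descriptions, and the calls of the fit over all genes support nothing about them. The study profiled single cells of whole left knee joints with Seq-Well, a method in which each cell settles in a tiny well beside a barcoded bead that takes up its messenger RNA. The 5 sick mice (numbered 1, 3, 4, 5 and 6) had antigen-induced arthritis, triggered in the left knee with methylated bovine serum albumin (mBSA) after sensitization to it. The 4 healthy mice (numbered 1 to 4) received phosphate-buffered saline in that knee, and the labels do not say whether they had been sensitized. All were female 129/Sve mice aged 8 weeks, killed 1 week after the injection, and each mouse is 1 library.

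An antibody is built from heavy and light chains, and the constant region of the heavy chain sets its class. A B cell first joins its variable region to Ighm and Ighd, and class switch recombination can later replace these by an Ighg, Igha or Ighe gene lying farther along the chromosome. Plasma cells, the end stage of the lineage, transcribe 1 heavy and 1 light chain at very high levels together with Jchain, which links polymeric IgM and IgA, and Mzb1, a chaperone of the endoplasmic reticulum. Plasmacytoid dendritic cells also transcribe Mzb1, and resting B cells carry IgM and IgD on their surface.

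The IgG genes resemble one another, and transcript counts depend on telling them apart. On the mouse build GRCm38 (GENCODE M21 annotation, taken from the C57BL/6 strain) all 7 heavy chain genes are annotated as IG_C_gene on the minus strand of chromosome 12, between Igha at chr12:113254830-113260236 and Ighm at chr12:113418558-113422730. Igkc lies on the plus strand at chr6:70726435-70726966, and Iglc1 (chr16:19061618-19062071) and Iglc2 (chr16:19198396-19200351) on the minus strand of chromosome 16. The last 150 coding bases of the 4 IgG genes are shown because Seq-Well reads transcripts near their 3' end. Capitals mark bases that differ from Ighg1, and in Ighg1 itself bases that differ from any of the other IgG genes. The windows are chr12:113328979-113329128 for Ighg1, chr12:113306392-113306541 for Ighg2b, chr12:113287392-113287541 for Ighg2c and chr12:113359668-113359817 for Ighg3, each printed 5' to 3' on the gene's strand.
Ighg1: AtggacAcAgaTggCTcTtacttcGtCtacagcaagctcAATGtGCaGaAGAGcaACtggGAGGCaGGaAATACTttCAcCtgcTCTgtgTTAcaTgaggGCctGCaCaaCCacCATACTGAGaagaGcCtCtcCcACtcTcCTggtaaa
Ighg2b: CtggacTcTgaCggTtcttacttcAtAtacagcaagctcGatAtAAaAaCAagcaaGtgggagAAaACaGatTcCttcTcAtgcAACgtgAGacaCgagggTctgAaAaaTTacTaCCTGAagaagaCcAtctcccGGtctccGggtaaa
Ighg2c: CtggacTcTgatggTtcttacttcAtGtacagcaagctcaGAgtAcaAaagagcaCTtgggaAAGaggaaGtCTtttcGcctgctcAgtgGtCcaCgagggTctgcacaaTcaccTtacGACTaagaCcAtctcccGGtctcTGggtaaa
Ighg3: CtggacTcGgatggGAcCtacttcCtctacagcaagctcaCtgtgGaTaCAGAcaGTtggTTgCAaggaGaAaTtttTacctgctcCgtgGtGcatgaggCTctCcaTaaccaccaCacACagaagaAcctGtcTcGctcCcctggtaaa
In this window Ighg1 differed from Ighg2b at 46 positions, from Ighg2c at 36 and from Ighg3 at 39, and Ighg2b differed from Ighg2c at 39. Over the whole coding sequence Ighg2b and Ighg2c were 85.9% identical, against 74.8 to 77.4% for Ighg1 with each of the other 3. The longest run of identical bases in Ighg2b (chr12:113306869-113306946) and Ighg2c (chr12:113287869-113287946) was the following 78 bases.
Ighg2b and Ighg2c: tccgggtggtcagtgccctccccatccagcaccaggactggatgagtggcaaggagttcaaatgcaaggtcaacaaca
Strains with the a haplotype of the heavy chain locus, to which 129 mice belong, carry Ighg2a in the place of Ighg2c. The count table has no row named Ighg2a, and from which gene the transcripts counted as Ighg2c came was not tested.

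Among the lambda genes Iglc2 and Iglc3 were closer still, which bears on how Iglc2 counts can be read. The last 90 coding bases of Iglc2 (chr16:19198539-19198628), of Iglc3 (chr16:19065368-19065457), a lambda gene outside the 10, and of Iglc1 (chr16:19061755-19061844) are shown with capitals where Iglc3 or Iglc1 differs from Iglc2, and in Iglc2 where either differs.
Iglc2: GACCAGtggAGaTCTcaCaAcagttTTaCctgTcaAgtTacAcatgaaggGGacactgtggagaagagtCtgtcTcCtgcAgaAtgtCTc
Iglc3: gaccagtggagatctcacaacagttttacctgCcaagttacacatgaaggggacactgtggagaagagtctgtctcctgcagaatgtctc
Iglc1: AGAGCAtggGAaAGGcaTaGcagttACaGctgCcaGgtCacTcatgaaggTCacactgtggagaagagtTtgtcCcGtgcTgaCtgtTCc
Iglc3 differed from Iglc2 at 1 position of this window and Iglc1 at 29. Counts of Iglc2 and Iglc3 are therefore uncertain, since the sources used here do not state how reads fitting both were counted.

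Of 16751 deposited cells 16749 were kept, 12200 from sick and 4549 from healthy mice. Total counts per mouse were 1589079 to 4675909 in sick and 896930 to 1514252 in healthy mice, and the median count per cell was 812 to 944 in sick and 766 to 1009 in healthy mice. Healthy mice 2, 3 and 4 stood apart from the other 6 libraries, with medians of 273 to 290 genes per cell against 357 to 402, and with 35.3 to 39.7% of their counts from haemoglobin genes against 10.2 to 27.9%. Ribosomal RNA-like counts were 0.910 to 2.21% in sick mice and 2.39 to 6.14% in healthy mice, without overlap, and mitochondrial counts 3.09 to 6.05% in sick mice and 5.48 to 10.3% in healthy mice. These properties move with the groups, and their part in the differences below was not tested. The libraries shared 8 of 16743 cell barcodes, and the labels name no batch. A change in the number of cells of a type and a change in RNA per cell cannot be told apart in sums over a joint.

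The IgG genes were far higher in sick joints, and Ighg1 most of all. Ighg1, the constant region of IgG1, had 730, 1025, 202, 261 and 552 CPM (counts scaled to 1e6 counts per mouse) in sick mice 1, 3, 4, 5 and 6, against 3.30, 5.57, 0 and 5.93 CPM in healthy mice 1 to 4. The lowest sick mouse stood far above the highest healthy one, and the healthy values rested on 18 counts in all, against 9393 in sick mice. Its mean was 554 ± 340 CPM in sick mice (SD, n = 5) and 3.70 ± 2.73 CPM in healthy mice (n = 4). A single cell held 47.0% of its counts in sick mouse 4 and 44.99% in sick mouse 5, and 13.8 to 22.1% in the other 3 sick mice. In edgeR's fit over the whole joint its log2 fold, sick over healthy, was 6.96 ± 0.60 (SE).

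**Figure D1:**
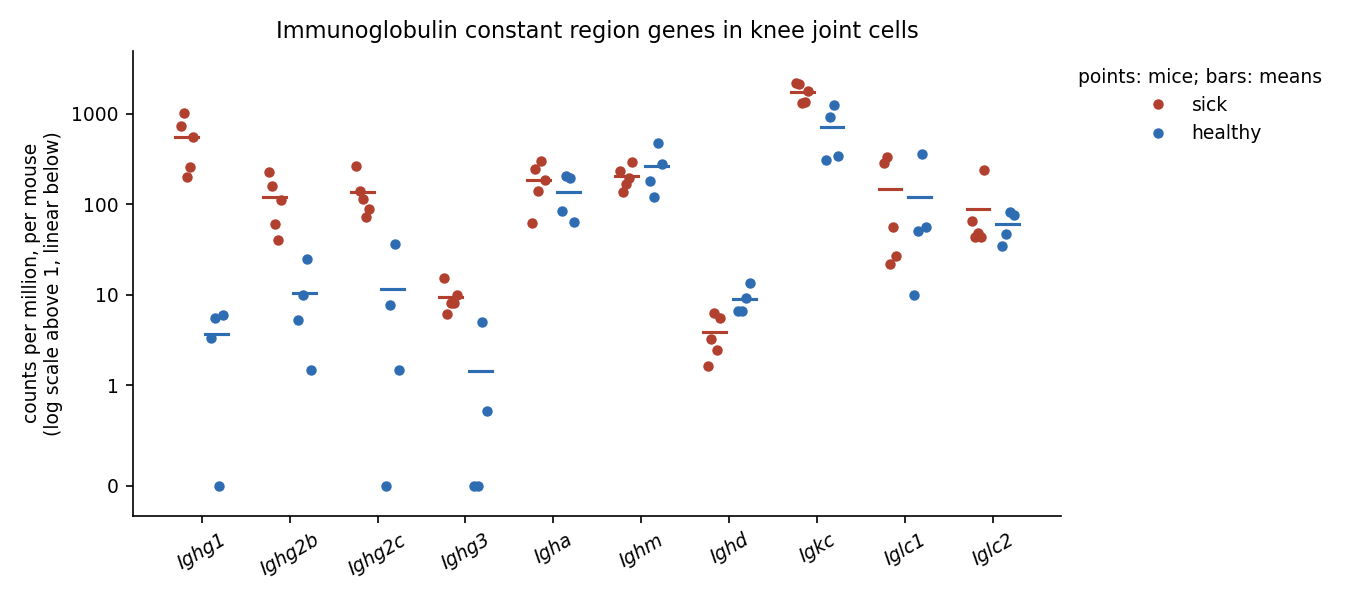
CPM of each of the 10 constant region genes in each mouse (vertical axis logarithmic above 1 and linear below, points mice, bars group means, sick left of healthy, 5 and 4 mice). Ighg1 lies between 202 and 1025 CPM in sick mice and at or below 5.93 CPM in healthy mice, while Igha, Ighm, Iglc1 and Iglc2 overlap between the groups.

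Ighg2b, for IgG2b, and Ighg2c followed at lower levels. Mice of this strain carry another gene in the place of Ighg2c, as stated above, so the Ighg2c row is not read as IgG2c. Ighg2b stood at 227, 159, 61.0, 40.4 and 113 CPM in the sick mice and at 5.28, 10.03, 25.1 and 1.48 CPM in the healthy mice. Ighg2c stood at 268, 141, 115, 72.6 and 89.8 CPM in the sick mice and at 0, 7.80, 36.5 and 1.48 CPM in the healthy mice. The groups did not overlap for either gene, and in both the highest healthy value belonged to healthy mouse 3. The log2 folds were 3.13 ± 0.59 for Ighg2b and 3.11 ± 0.68 for Ighg2c (SE). Ighg3, for IgG3, was scarce, with 15.2, 6.20, 8.18, 8.14 and 9.97 CPM in the sick mice against 0, 0, 5.02 and 0.741 CPM in the healthy mice. Its sick values lay above its healthy ones in plain CPM and overlapped them after TMM scaling, at a log2 fold of 2.25 ± 0.68.

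The classes other than IgG did not share this pattern. Igha, for the IgA of mucosal secretions, had 62.2, 247, 142, 304 and 186 CPM in sick mice and 84.5, 205, 198 and 63.7 CPM in healthy mice, and the groups overlapped widely (log2 fold 0.13 ± 0.44). Ighm, for IgM, the first class a B cell makes, had 232, 136, 170, 197 and 297 CPM in sick and 180, 120, 479 and 281 CPM in healthy mice, at a log2 fold of -0.76 ± 0.38. Healthy mouse 3 alone stood above every sick mouse. Ighd, for IgD of mature resting B cells, had only 101 counts in all, with 1.65 to 6.29 CPM in sick mice and 6.60 to 13.3 CPM in healthy mice. Its sick values lay just below its healthy ones in plain CPM and overlapped them after TMM scaling, at a log2 fold of -1.59 ± 0.45.

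Among the light chains Igkc, which most mouse antibodies use, had 2177, 2152, 1333, 1345 and 1796 CPM in sick and 306, 930, 1272 and 342 CPM in healthy mice. The lowest sick mouse was barely above healthy mouse 3, the groups overlapped after TMM scaling, and the log2 fold was 0.89 ± 0.39. Iglc1 had 289, 336, 22.0, 56.6 and 27.1 CPM in sick mice against 9.91, 51.3, 364 and 56.3 CPM in healthy mice, and Iglc2 had 65.9, 43.4, 47.8, 43.9 and 239 CPM in sick mice against 35.0, 46.8, 83.1 and 75.6 CPM in healthy mice. Iglc1 was high in sick mice 1 and 3 and healthy mouse 3, and Iglc2 in sick mouse 6. Single cells supplied much of some of these values, though in sick mouse 3 the top cell held 29.1% of 1572 Iglc1 counts. A single cell held 570 of the 702 Iglc1 counts of sick mouse 1, another 409 of the 508 in healthy mouse 3, and another 319 of the 766 Iglc2 counts of sick mouse 6. The log2 folds were -0.30 ± 0.85 for Iglc1 and 0.24 ± 0.54 for Iglc2. The Iglc1 sign turned with the scaling: it was 0.29 without TMM, which moved the median log2 fold of all genes from -0.02 to 0.29, and 1.53 without healthy mouse 3.

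By edgeR's quasi-likelihood test with Benjamini-Hochberg adjustment over the 10323 genes tested, 3 of the 10 were called, where 0.940% of all genes were. The 3 were higher in sick joints (Ighg1, Ighg2b and Ighg2c), as were 0.639% of all genes, and 0 were lower, as were 0.300% of all genes. After TMM scaling the same 3 had all sick mice above all healthy mice, as did 2.85% of all genes, and none had all sick mice below, as did 2.01%. Since these genes were chosen on this contrast, nothing is read from these counts. The median log2 fold of the 10 was 0.56, against -0.02 for all genes tested. The calls of Ighg1 (adjusted p = 0.0580 in edgeR) and Ighg2b were lost with healthy mouse 1 as the only healthy mouse. That of Ighg2b was also lost without healthy mouse 2 or 4, and that of Ighg2c in DESeq2, with the replicate block, and without sick mouse 1, 3 or 5 or healthy mouse 2 or 4.

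The class switch balance was measured as each gene's share of the heavy chain counts of a mouse, which sets aside how much antibody RNA the joint held. It pools all cells, early B cells as well as plasma cells, and the part of their numbers in it was not tested. The 4 IgG genes together took 80.7, 77.5, 54.8, 43.2 and 61.0% of the heavy chain counts in sick mice, against 3.07, 6.58, 8.85 and 2.62% in healthy mice. No healthy mouse came near the lowest sick one. The means were 63.5% ± 15.7 in sick mice and 5.28% ± 2.97 in healthy mice (SD, n = 5 and 4, over 19400 and 2289 heavy chain counts). Ighg1 alone took 41.9% ± 13.04 of the heavy chain counts in sick mice and 1.09% ± 0.752 in healthy mice. Ighm took 18.6% ± 7.01 in sick mice and 59.6% ± 18.1 in healthy mice, and Igha 17.6% ± 11.0 in sick mice and 32.9% ± 17.4 in healthy mice. Ighg2b took 9.26% ± 3.64 in sick mice and 2.11% ± 1.29 in healthy mice, and Ighg2c 11.5% ± 4.97 in sick mice and 1.86% ± 2.21 in healthy mice. How reads fitting several of these genes were counted is not given, so these shares compare a gene between mice rather than genes with each other.

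**Figure D2:**
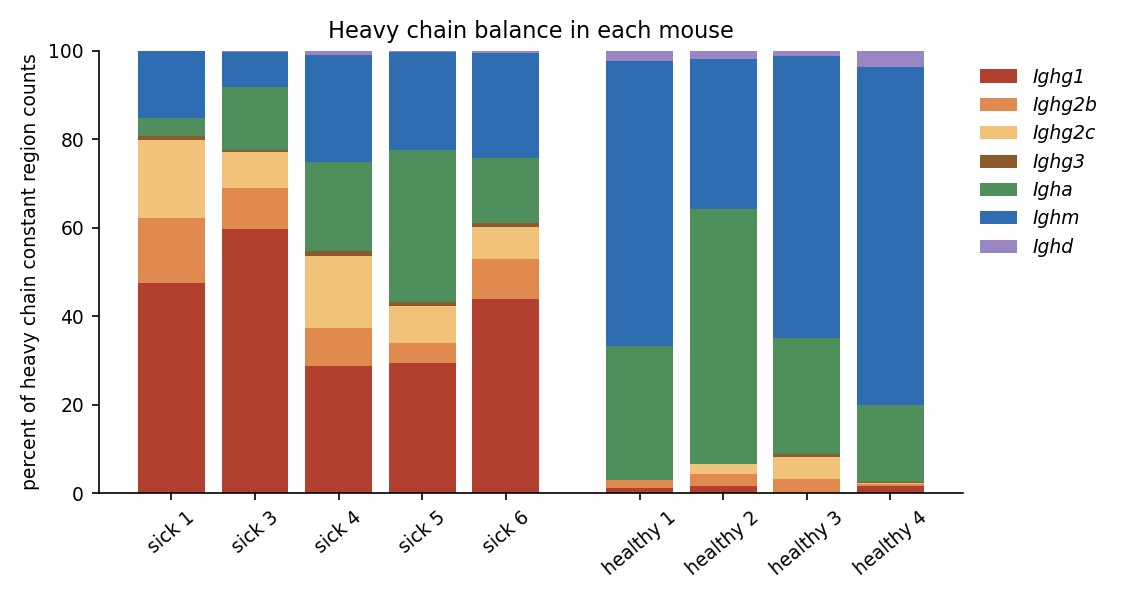
Percent of each mouse's heavy chain constant region counts held by each of the 7 heavy chain genes, as stacked bars adding up to 100% (5 sick mice on the left, 4 healthy mice on the right). The 4 IgG genes fill 43.2 to 80.7% of the bar in sick mice and 2.62 to 8.85% in healthy mice.

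Light chain use differed less. The 2 lambda genes took 10.8% ± 4.50 of the light chain counts in sick mice and 19.05% ± 9.23 in healthy mice (30913 and 4492 light chain counts), and the ranges overlapped.

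In sick mice most IgG transcripts lay in cells with the plasma cell genes Jchain and Mzb1. Cells with a count of both numbered 212 (186 sick, 26 healthy), with 3 of them holding Siglech, a marker of plasmacytoid dendritic cells. Without those 3 the gate was 1.25% of all cells and held 2.31% of all counts, and the median gene with at least 50 counts had 2.24% of its counts there. Of all counts of each gene, the 212 cells held 69.8% of Ighg1, 80.9% of Ighg2b, 74.0% of Ighg2c, 81.0% of Ighg3, 58.8% of Igha, 56.8% of Igkc and 61.2% of Iglc1. They held only 12.1% of Ighm, 17.2% of Iglc2 and 1 of 101 Ighd counts. In sick mice the share averaged 67.0% ± 14.4 for Ighg1 and 56.9% ± 15.9 for Igkc over the 5 mice, lowest in sick mouse 4 for both, at 47.4 and 30.5%. The Iglc1 share rested on few mice: it was 82.1, 60.2, 11.4, 8.75 and 1.15% in the sick mice and 0, 8.70, 81.3 and 2.63% in the healthy mice. The gate held 9701 of 13383 IgG counts (72.5%) in sick mice and 55 of 140 (39.3%) in healthy mice, 52 of the 55 in healthy mouse 3. For Igkc the share averaged 25.4% ± 21.9 in healthy mice.

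By the rule of the highest share of counts in the gate, the genes outside the immunoglobulins most like the constant regions were Eaf2 (24 of 74 counts, 32.4%), Dusp4 (29.8%), Fam214a (22.7%), Epcam (19.6%) and Fkbp11 (19.3%), over 13649 genes. Eaf2 and Fkbp11 stood on the list of plasma cell genes. Jchain itself had 59.1% and Mzb1 40.2%, which the gate fixes.

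The gate held a mix of cells. Of its 212 cells 84 had at least 20 heavy chain counts (median 121.5) and a median of 56 Jchain counts, and in these the 10 genes took 19.9% of all counts. The other 128 had a median of 1 heavy chain count, 46 had none, and 69 had exactly 1 count of Jchain and 1 of Mzb1. The 16 other plasma cell genes summed to 4697 CPM in the 84 cells and 818 CPM in the 128, against 638 CPM in cells outside. The 13 early B cell genes summed to 378 CPM in the 84 and 661 CPM in the 128, against 285 CPM outside. A further 35 cells with at least 20 heavy chain counts had no Mzb1 count, and 34 of them had Jchain.

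Cells in the gate were 1.67, 1.58, 1.07, 1.01 and 2.01% of the cells of the sick mice, against 0.571, 0.228, 0.858 and 0.491% in the healthy mice, so the groups did not overlap. The mean was 1.47% ± 0.42 in sick and 0.537% ± 0.259 in healthy mice (SD, n = 5 and 4). The exact two-sided permutation test over all splits of the 9 mice gave p = 0.0159 and an adjusted p of 0.0265 over 5 measures, with 5 of 5 sick mice above every healthy mouse. The gate was chosen with earlier results of these data known, so this test is not independent support. The difference of 0.933 percentage points fell to 0.332 (exact permutation test, adjusted p = 0.119) when each cell was thinned to 500 counts, which left out 1436 sick and 328 healthy cells, and to 0.306 (adjusted p = 0.149) when 2 counts of each gene were asked for. It grew to 1.72 percentage points (exact permutation test, adjusted p = 0.0265) when the gate was counts of at least 4 genes of the plasma cell list. The gate reads Jchain and Mzb1 RNA that is also found in cells of other types, described below, and the part of that RNA in the share was not tested.

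The cells that carry the antibody RNA show the classes one at a time. All 119 cells with at least 20 heavy chain counts are called antibody-rich cells here, 107 from sick mice and 12 from healthy mice, a threshold set after the values were seen. There were 29 cells with 10 to 19 heavy chain counts and 13 with 20 to 29. These cells numbered 24, 46, 10, 12 and 15 in sick mice and 2, 1, 7 and 2 in healthy mice. They held 75.2% of all Ighg1 counts, 87.6% of Ighg2b, 88.7% of Ighg2c, 93.0% of Ighg3, 71.0% of Igha and 67.9% of Igkc, but 33.1% of Ighm and 0 of Ighd.

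Ighg1 had the most counts in 50 of the 107 antibody-rich cells of sick mice (46.7%, exact 95% interval 37.0 to 56.6% over the pooled cells). It led cells in all 5 sick mice, but unevenly: 14 of 24, 25 of 46, 3 of 10, 2 of 12 and 6 of 15. In sick mouse 5 Igha led more cells, 6 of 12. In healthy mice Ighg1 led 0 of 12 cells, which allows a share of up to 25%. Igha led 23 sick cells (21.5%) and 6 healthy cells (50%, interval 21.1 to 78.9%), and was present as leader in all 9 mice. Ighm led 10 sick cells (9.35%) and 5 healthy cells (41.7%, interval 15.2 to 72.3%), Ighg2c 17 sick and 1 healthy, and Ighg2b 7 sick and 0 healthy. The intervals pool cells over mice and cover counting error only, not the spread between mice. With 12 healthy cells, 7 of them from healthy mouse 3, the healthy balance is loosely known.

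**Figure D3:**
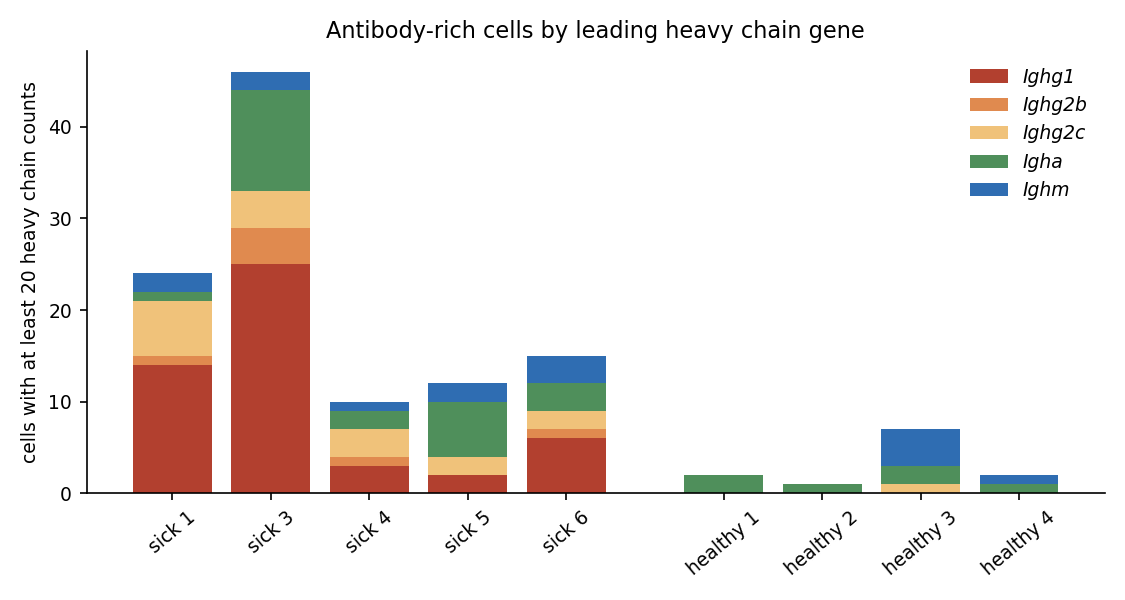
Number of cells with at least 20 heavy chain counts in each mouse, coloured by the heavy chain gene with the most counts in the cell (5 sick mice on the left, 4 healthy on the right). Ighg1-led cells number 50 in sick mice and 0 in healthy mice, and healthy mouse 3 holds 7 of the 12 healthy cells.

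Most of these cells carried nearly pure transcripts of a single class. The leading gene held a median of 100% of the heavy chain counts in Igha-led and Ighm-led cells, 95.2% in Ighg1-led cells and 92.1% in Ighg2b-led cells, but only 59.1% in Ighg2c-led cells. In the 50 Ighg1-led cells the remainder was mainly Ighg2c, with 336 counts against 27 of Ighg2b and 3 of Ighg3, and a median of 4.22% of the heavy chain counts of a cell (0 to 15%). Light chains were as exclusive: Igkc led 102 sick and 11 healthy cells, Iglc1 4 sick and 1 healthy, and Iglc2 1 sick and 0 healthy. Where Igkc led, it held a median of 98.9% of the light chain counts.

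The 25 cells led by Ighg2b or Ighg2c fell into 3 bands by the Ighg2c part of their summed Ighg2b and Ighg2c counts, drawn after the values were seen. In 7 cells Ighg2c was 0 to 16.7% (median 6.86%), in 14 it was 57.3 to 69.1% (median 63.8%), and in 4 it was 90.8 to 100%. No cell lay between 16.7 and 57.3%. The middle band came from 6 mice, 13 cells from sick and 1 from healthy, and summed to 1124 Ighg2c and 668 Ighg2b counts. It also held most of the Ighg3 in the joint, 116 of 142 counts, at a median of 5.62% of a cell's heavy chain counts, while the 4 cells of the upper band had no Ighg3 count. No antibody-rich cell was led by Ighg3. The longest identical stretch of Ighg2b and Ighg2c is printed above, and 862 of their 1004 aligned coding bases were identical. Whether reads of a single gene were divided between these rows was not tested.

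**Figure D4:**
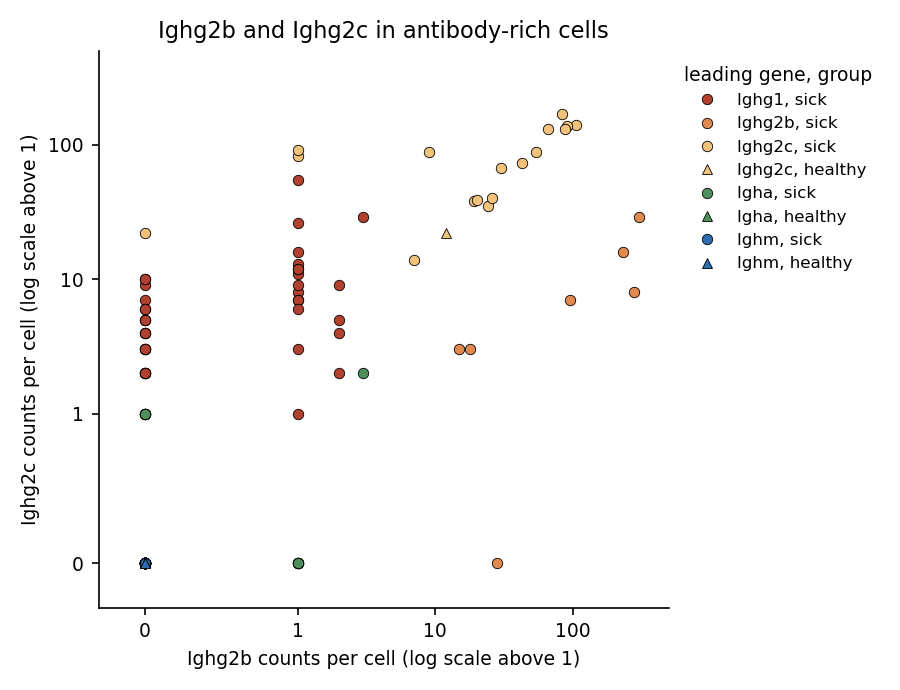
Ighg2b counts (horizontal) and Ighg2c counts (vertical) of each antibody-rich cell, on axes logarithmic above 1 and linear below, coloured by leading heavy chain gene (circles sick, triangles healthy). The 14 cells of the middle band lie on a diagonal with 57.3 to 69.1% Ighg2c, apart from the 7 cells with at most 16.7%.

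Immunoglobulin RNA was also found at a low level in cells chosen as types that should not make it. Whether these cells made any was not tested. A gate of 3 of 6 neutrophil genes took in 12125 cells (72.4%) and so did not mark a cell type. Stricter sets, chosen after that was seen, were used in its place. Neutrophil-rich cells had at least 5% of their counts from Camp, Ngp, Ltf, Mmp8, Cd177 and Retnlg (3169 sick, 477 healthy), and haemoglobin-rich cells at least 50% from haemoglobin genes (1187 and 658). Neither set held gate cells, cells with at least 20 heavy chain counts, or a count of Siglech or of an early B cell gene. Near these limits lay 1432 and 1391 cells (between 4 and 6%, and between 45 and 55%).

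In haemoglobin-rich cells Ighg1 stood at 139, 343, 35.9, 69.4 and 197 CPM in sick mice 1, 3, 4, 5 and 6, against 5.78, 12.9, 0 and 8.75 CPM in healthy mice. In neutrophil-rich cells it was 111, 222, 14.2, 57.2 and 119 CPM in sick mice, against 3.01, 0, 0 and 0 CPM in healthy mice. Sick mouse 3, with the highest Ighg1 in the whole joint, was also the highest in both sets, and sick mouse 4 the lowest. A count of Ighg1 was seen in 4.62 to 37.3% of haemoglobin-rich cells of sick mice and in 0 to 1.90% of those of healthy mice, at median depths of 1143.5 to 1438 and 1064 to 1584 counts per cell. Igkc averaged 499 ± 163 CPM in the haemoglobin-rich cells of sick mice and 374 ± 183 CPM in those of healthy mice. Jchain was there too, at 135 ± 26.5 CPM in sick and 114 ± 56.3 CPM in healthy mice.

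**Figure D5:**
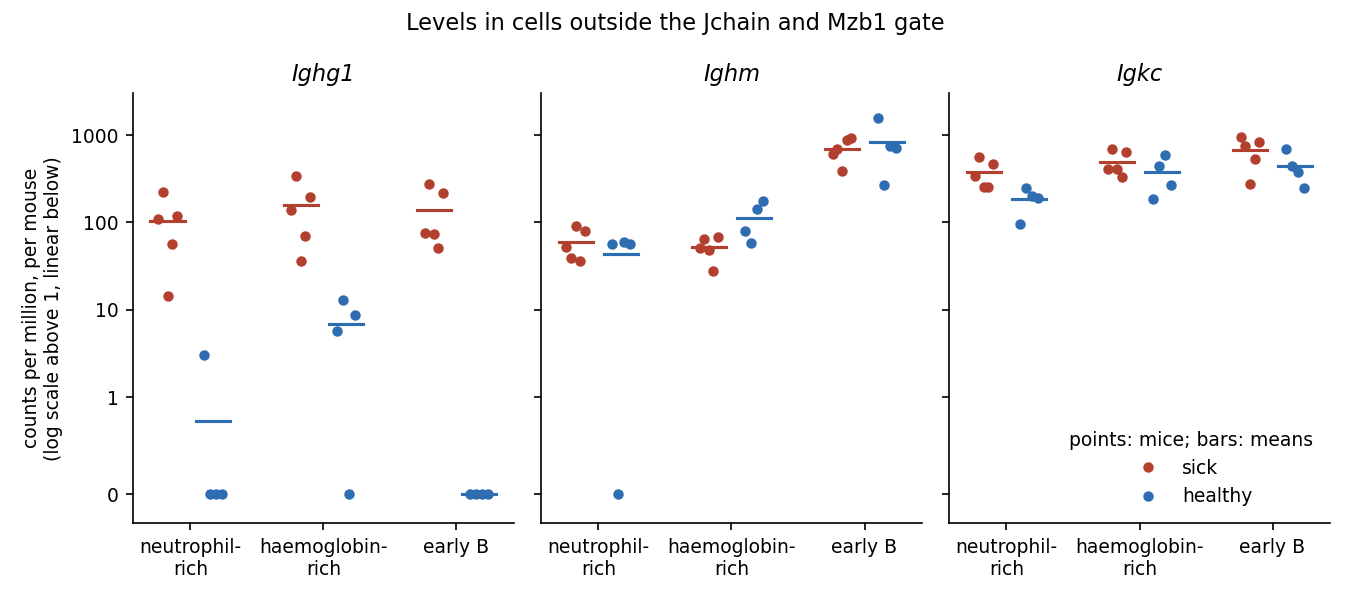
CPM of Ighg1, Ighm and Igkc in neutrophil-rich, haemoglobin-rich and early B cells outside the Jchain and Mzb1 gate (vertical axis logarithmic above 1 and linear below, points mice, bars group means, sick left of healthy). In sick mice Ighg1 averages 105 ± 78.0 CPM in neutrophil-rich, 157 ± 121 CPM in haemoglobin-rich and 139 ± 100 CPM in early B cells (SD). Ighm averages 697 CPM in early B cells of sick mice, against 51.8 CPM in haemoglobin-rich cells.

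The proportions of this background can be set beside those of the antibody-rich cells. Per 100 Igkc counts, haemoglobin-rich and neutrophil-rich cells of sick mice held 32.5 Ighg1 counts and 10.1 Igha counts, against 37.3 and 11.9 in antibody-rich cells of the same mice. Ighg2b and Ighg2c were at 2.32 and 2.46 per 100 Igkc counts there, against 8.80 and 9.44 in antibody-rich cells. Ighm was at 11.7, against 4.96. These ratios are of counts summed over the sick mice, and sick mouse 3 held 865 of the 2240 Igkc counts in the background. In single sick mice Ighg1 ran from 7.38 to 43.4 in the background and from 20.7 to 48.4 in antibody-rich cells. Igha ran from 4.11 to 17.1 and from 2.65 to 26.1. IgG made up 53.2% ± 20.9 of the heavy chain counts of haemoglobin-rich and neutrophil-rich cells in sick mice and 9.10% ± 5.77 in healthy mice. Here too the IgG share was larger in sick mice. With all antibody-rich cells left out, IgG was 41.5% ± 16.3 of heavy chain counts in sick and 7.08% ± 3.803 in healthy mice, and the difference of 58.2 percentage points fell to 34.4.

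Ighm, Ighd and Iglc2 had smaller shares of their counts in the gate than the other 7 genes. Of the Ighm counts of sick mice 60.2% lay in cells with 1 to 4 heavy chain counts, against 22.4% for Ighg1. Early B cells were taken as cells outside the gate with counts of at least 3 of 13 early B cell genes (301 sick, 64 healthy). Near this limit, 690 cells had 2 or 3 of them. Cells with at least 20 heavy chain counts or a Siglech count were left out, as in the other sets. The choice of cells therefore capped the heavy chain levels compared here, and early B cells above the cap cannot be seen. The early B cells had 697 ± 215 CPM of Ighm in sick and 826 ± 548 CPM in healthy mice. Haemoglobin-rich cells had 51.8 ± 15.8 CPM in sick and 114 ± 53.9 CPM in healthy mice, so in sick mice Ighm in early B cells was above the level in cells that should lack it. Ighg1 was not: it averaged 139 ± 100 CPM in early B cells of sick mice, beside 157 ± 121 CPM in haemoglobin-rich cells. It had 0 counts in early B cells of healthy mice. These were only 25, 9, 6 and 24 cells in healthy mice 1 to 4. Ighd had 3 counts in early B cells of sick and 4 in those of healthy mice, too few to place it.

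The genes around the antibody were examined through lists. Of 18 plasma cell genes 12 could be tested in the whole joint, and 0 passed edgeR's test (2 were higher at an unadjusted p under 0.05, and DESeq2 called 1, Xbp1). Xbp1, the transcription factor of the secretory program, had a log2 fold of 0.62 ± 0.18 (adjusted p = 0.122), Ssr4, a subunit of the translocon, 0.41 ± 0.15 (0.238), Fkbp11 1.00 ± 0.54 (0.433) and Jchain 0.64 ± 0.40 (0.500). Jchain was called without healthy mouse 3 (log2 fold 1.45, adjusted p = 0.0313), and its TMM-scaled level there was 768 CPM, against 110 to 322 CPM in the other healthy mice and 415 to 593 CPM in sick mice. The median log2 fold of the 12 was 0.29.

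Of 10 mature B cell genes 6 were tested, and Ms4a1, which encodes the surface protein CD20, fell by 1.76 ± 0.30 on the log2 scale (edgeR, adjusted p = 0.00854), the list's median being -0.66. Its TMM-scaled level was 7.76, 8.31, 13.8, 13.7 and 18.6 CPM in the sick mice and 24.0, 39.7, 50.8 and 53.4 CPM in the healthy mice, without overlap. Bank1, a B cell scaffold protein, stood at -0.76 ± 0.28 (adjusted p = 0.242). Of 13 early B cell genes 11 were tested and 0 passed (1 lower at an unadjusted p under 0.05, 0 in DESeq2). The terminal transferase gene Dntt was at -0.89 ± 0.28 (adjusted p = 0.167) and the antigen receptor subunit gene Cd79a at -0.48 ± 0.33 (0.541).

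Of 14 class switch and germinal centre genes 7 were tested and 0 passed (1 higher at an unadjusted p under 0.05, 0 in DESeq2). Bcl6, the repressor that defines germinal centre B cells and is also transcribed in myeloid cells, was at 0.97 ± 0.39 (edgeR, adjusted p = 0.286). Mybl1, a Myb family transcription factor, was at 0.75 ± 0.42 (0.448) and Batf, a transcription factor needed for class switching, at 0.65 ± 0.44 (0.539). Of 9 antibody receptor genes with a row 5 were tested and 0 passed (3 higher at an unadjusted p under 0.05, and DESeq2 called 1, Fcgr3). Fcgr4, an activating IgG receptor, had a log2 fold of 1.85 ± 0.48 (adjusted p = 0.0915), with TMM-scaled levels of 5.74 to 10.3 CPM in sick mice and 0 to 3.91 CPM in healthy mice. Fcgr3, another activating receptor, was at 0.83 ± 0.24 (0.131) and Fcer1g, their signalling chain, at 0.68 ± 0.24 (0.212), while Fcgr2b, the inhibitory IgG receptor, was at 0.38 ± 0.21 (0.440). The list's median was 0.68. The 6 neutrophil genes, whose cells carry these receptors, had log2 folds of 0.40 to 0.92, and their part in the receptor values was not tested. Pigr and Fcamr were not analysed here.

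Variable segments are part of the same transcripts as the constant regions, so their sums are given as descriptions, without a test. Heavy chain variable segments summed to 334.5 ± 103 CPM in sick mice (189 to 446 CPM) and 131 ± 26.5 CPM in healthy mice (105 to 165 CPM; SD, n = 5 and 4), and the groups did not overlap. Kappa segments summed to 419 ± 92.2 CPM in sick mice and 169 ± 172 CPM in healthy mice, and lambda segments to 68.2 ± 46.9 CPM in sick mice and 35.0 ± 53.7 CPM in healthy mice, both with overlap. The lambda difference of 33.2 CPM became 60.0 CPM without healthy mouse 3. The heavy chain segments overlapped as well once haemoglobin, mitochondrial and ribosomal RNA-like counts were left out of the total. They then ran from 270 to 530 CPM in sick mice and from 188 to 350 CPM in healthy mice.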

How the data were processed

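The deposited table holds raw counts per gene and cell; per the labels, the authors demultiplexed reads with bcl2fastq and processed them with Picard, version 1.0.1 of a Drop-seq protocol and STAR, with several sequencing rounds merged. The extract protocol names GRCh38, and the submitters' processing notes GRCm38 and mm9; the symbols in the table are mouse symbols. How reads fitting several genes were counted is not given in the sources used here. Counts fix the precision: a gene with few counts has wide error.

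Cells under 200 genes or over 20% mitochondrial counts were left out, and no doublet caller was run. Counts were summed per mouse and compared with edgeR 4.0.16 (filterByExpr, TMM, quasi-likelihood test, Benjamini-Hochberg adjustment, false discovery rate 0.05; R 4.3.3, limma 3.58.1), and with DESeq2 1.42.0 as an alternative. The code was tested on simulated data. CPM values are counts scaled to 1e6 counts of the mouse, without TMM unless stated. Shares of cells were compared by exact permutation (scipy 1.17.1), with the mouse as the unit. These p-values were adjusted over 5 measures, the gate share with and without Siglech cells and the sums of heavy, kappa and lambda variable segments. The segments share transcripts with the genes described, so their own p-values are not given. The labels name the samples as separate mice. Shares carry exact Clopper-Pearson 95% intervals, which like the limit for a count of 0 (3 counts) cover counting error only.

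Genes named from a list are up to 4 tested members with the smallest p, of which 1 is not reported here; genes like the constant regions are the 5 non-immunoglobulin genes with the highest share of counts in the Jchain and Mzb1 gate among those with at least 50 counts. The genes described, the lists and the rules were chosen with earlier results of these data known. Alternatives were no TMM, no filter on low counts, all deposited cells, leaving out 1 mouse at a time, a block for the replicate number, healthy mouse 1 as the only healthy mouse, other gates, thinned cells and other denominators, and, chosen after seeing the data, leaving out antibody-rich cells, leaving out ribosomal RNA-like, mitochondrial and haemoglobin genes, and other cell sets for the background. Sequences were read from GENCODE M21 on GRCm38 with Biopython 1.88; no protein sequences were used.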

Additional observations from a re-analysis of the deposited data

Results flagged for a closer look

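Among 34 sets of mice screened, 4 held a mouse whose gap to the next one was large for the range of its group. Chance flags about 1 in 20 such groups. Healthy mouse 3 had 5.02 CPM of Ighg3, against 0 to 0.741 CPM in the other healthy mice, from 7 counts of which 5 lay in 1 cell. The same mouse had 364 CPM of Iglc1, against 9.91 to 56.3 CPM in the other healthy mice, and 409 of its 508 counts lay in 1 cell. Its lambda variable segments summed to 115 CPM, the highest among the healthy mice. Sick mouse 6 had 239 CPM of Iglc2, against 43.4 to 65.9 CPM in the other sick mice, with 319 of 766 counts in 1 cell and the rest spread over other cells of that mouse (279 cells with a count).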

How the results depend on the processing

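The whole-joint test called 66 genes higher and 31 lower in sick joints. DESeq2 called 183 and 84, the fit without TMM 108 and 18, and the fit without a filter on low counts 210 and 72. With healthy mouse 1 as the only healthy mouse 9 and 3 genes were called, and without ribosomal RNA-like, mitochondrial and haemoglobin genes 20 were called lower. Leaving out 1 mouse at a time gave 39 to 150 higher (150 without healthy mouse 1, 39 without sick mouse 5) and 14 to 105 lower. With the replicate block 43 genes were called higher. The shared numbers did not pair the mice: the correlations of same-numbered deviations were 0.17, -0.05 and 0.07 for numbers 1, 3 and 4.

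Plasma cell genes called higher went to 1 in DESeq2, without TMM, with healthy mouse 1 alone, and over a range of 0 to 1 with single mice left out. Antibody receptor genes called higher went to 1 in DESeq2 and without TMM, to 2 without the filter, and ranged from 0 to 2 with single mice left out. Mature B cell genes called lower went to 0 with healthy mouse 1 alone. The share of gate cells differed by 0.306 percentage points with 2 counts of each gene (0.296 without Siglech cells), by 0.332 after thinning in both forms, and by 0.899 and 0.874 with healthy mouse 1 alone. Single mice left out gave 0.799 to 1.05 and 0.787 to 1.02; without healthy mouse 1, 2 or 4 the adjusted p was 0.0595, where 56 splits remain. The heavy chain segment difference of 203 CPM became 178 after thinning, 199.5 without haemoglobin, mitochondrial and ribosomal RNA-like counts in the total, 195 with healthy mouse 1 alone, and 175 to 239 with single mice left out. The kappa segment difference of 249.8 CPM became 285 CPM without the top cell of each mouse and 210 to 335 with single mice left out, and lambda 22.8 to 60.0. Without haemoglobin, mitochondrial and ribosomal RNA-like counts in the total, the kappa difference was 222 CPM and the lambda difference 17.1 CPM. In that setting the groups overlapped for heavy chain segments too. The IgG share difference fell to 34.4 percentage points without antibody-rich cells and stayed within 53.9 to 63.2 with single mice left out.

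Signs that turned belonged to log2 folds with no call. Igha became -0.094 with the block, and ranged from -0.15 (without sick mouse 5) over -0.14 (healthy mouse 1) and -0.08 (healthy mouse 4) to 0.49. Iglc1 became 0.29 without TMM, 0.28 with the block, 1.53 without healthy mouse 3 and 3.92 with healthy mouse 1 alone (-0.87 to 1.53 with single mice left out), and Iglc2 -0.70 with the block, -0.72 without sick mouse 6 and -0.05 without healthy mouse 1 (up to 0.54 with single mice left out). With healthy mouse 1 alone Ighm became 0.34, Fcrla 0.018, H2-Ob 0.62, Il7r 7.63e-05, Cd79a 0.38 and Pax5 0.45. The log2 fold of Ighg1 stayed between 6.59 and 7.45 with single mice left out. Ighg3 was called without the filter and without healthy mouse 3. The cause of these changes was not tested. Depth limits Ighd, Ighg3 and the healthy IgG genes most.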

Other observations

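Ighe, the constant region of IgE, had 10 counts in sick mice, 9 of them in sick mouse 1, against 0 in healthy mice. None lay in cells with Jchain and Mzb1. Iglc3 had 337 counts in sick mice (21.9 ± 10.7 CPM, SD, n = 5) and 123 in healthy mice (24.0 ± 6.16 CPM, n = 4). Of its counts 32.0% in sick mice and 2.44% in healthy mice lay in the Jchain and Mzb1 gate. Joining segments counted as rows of their own were scarce: Ighj2 averaged 8.90 ± 6.80 CPM in sick and 4.06 ± 2.75 CPM in healthy mice, and Ighj4 12.2 ± 6.65 CPM in sick and 6.71 ± 7.65 CPM in healthy mice.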
